A study of Mus musculus with 20 samples.

Results

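Annexins and S100 proteins are the calcium-binding protein families described here, as their transcripts were measured in microglia of the injured mouse spinal cord. The members were fixed as a list of symbols, Anxa1 to Anxa5 with S100a1, S100a4, S100a6, S100a10 and S100a11, and all 10 of 10 were found among the 16810 genes of the expression table. Bulk RNA-Seq was done on eGFP-high cells sorted from the spinal cord of adult CX3CR1+/eGFP mice, which are heterozygous for a reporter at the fractalkine receptor gene and make eGFP in microglia and also in monocytes and macrophages. All 20 libraries share this genotype. They fall into 7 groups: 3 libraries from non-injured (NI) mice; 3, 2 and 3 libraries from mice at 72 h, 1 week and 2 weeks after a lateral hemisection (HS) of the thoracic cord; and 3 libraries at each of the same times after a full transection (FT). The cells were taken from a short thoracic segment centred on the lesion. The study used more mice than libraries and does not say which mice went into which library, so p-values measure the spread between these libraries only.

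Annexins bind phosphatidylserine and other acidic phospholipids when calcium rises, and take part in membrane repair, vesicle traffic and the clearance of dying cells. S100 proteins are small EF-hand dimers that change shape on binding calcium and dock onto partner proteins. The families meet in complexes in which an S100 dimer bridges annexins, of which annexin A2 with S100A10 at the cell surface, an assembly site for plasminogen and its activator, is the best known. In microglia and macrophages, annexins are known for handling apoptotic debris and S100 proteins for motility and damage signalling. Protein levels, calcium and secretion were not measured here, so every value below is a transcript level.

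Levels are given as normalised read counts in CPM, as deposited by the study, which reports normalisation by library size. The columns do not share 1 total. They added up to 777426 to 830481 CPM in NI and to 878070 to 1202186 CPM in the injured libraries, so every injured total was the higher. The libraries held between 3.87 and 34.1 M assigned reads (median 10.1 M), so that 1 read was worth 0.0330 to 0.292 CPM. The summed level of 10 microglial markers lay between 18500 and 38940 CPM across libraries, with overlap between groups. The summed level of 11 markers of monocytes and monocyte-derived macrophages ran from 66.4 to 82.2 CPM over the NI libraries, and the injured ones held 282 to 1412 CPM, with Fn1 as its main component. Ly6c2, a marker of inflammatory monocytes, stayed between 0.772 and 1.63 CPM in NI, between 0.958 and 2.26 CPM at 72 h after HS and between 3.87 and 6.13 CPM at 72 h after FT. Among the 72 h FT libraries, replicate 1 stood apart with 1412 CPM of the monocyte list against 663 and 678 CPM in the others. In bulk samples, fewer cells of a type and less RNA per cell cannot be told apart.

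Each of the 5 annexin genes lies on a different chromosome, and all 5 S100 members lie on chromosome 3. In GENCODE vM21 on GRCm38, Anxa2 spans chr9:69453620-69491795 on the plus strand, with 13 exons in its principal transcript of 1447 bases. S100a1 (chr3:90511034-90514392, minus strand), S100a4 (chr3:90603771-90606045, plus strand) and S100a6 (chr3:90612882-90624181, plus strand) lie close together. S100a11 (chr3:93520488-93526287) and S100a10 (chr3:93555080-93564643), both on the plus strand, are neighbours farther along the chromosome. Each S100 member has 3 exons, in principal transcripts of 498 to 731 bases. Some reads cannot be placed with certainty: S100a4 shares 302 bases at 100% identity with the overlapping read-through gene Gm42674, and S100a11 matches Gm12854 at 99.0% over 297 bases and 4 further near copies at 90% identity or more. None of these copies is listed in the expression table. Anxa2 also overlaps the antisense gene Gm16144, and strand-specific counting is not stated.

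The promoters of 5 members are shown because these members fall into the contrasting time courses described below: Anxa2 stayed high, whereas Anxa1, S100a4, S100a6 and S100a11 were called higher than NI at 72 h only. They are the RefSeq windows (GRCm38.p6) from 250 bases before to 50 bases after the transcription start, and 8 of the 10 members had such a window, 9 windows in all. Anxa3 and S100a10 had none. Capitals mark the letters of 4 motifs searched on both strands. The stress-responsive factor AP-1 was searched as TGANTCA. The myeloid factor with the name PU.1 was searched as GAGGAAGT. The E-box bound by many basic helix-loop-helix factors was searched as CACGTG. The element that places the core transcription machinery was searched as TATAAA. No 2 of these motifs overlapped in the member windows.
Anxa2 (chr9:69453433-69453732, plus strand): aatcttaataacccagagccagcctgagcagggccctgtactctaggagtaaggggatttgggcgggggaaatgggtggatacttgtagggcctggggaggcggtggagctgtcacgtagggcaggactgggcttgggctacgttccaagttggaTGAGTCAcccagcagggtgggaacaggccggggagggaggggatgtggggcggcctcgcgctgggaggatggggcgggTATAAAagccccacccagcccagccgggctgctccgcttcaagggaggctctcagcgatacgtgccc
Anxa1 (chr19:20390622-20390921, minus strand): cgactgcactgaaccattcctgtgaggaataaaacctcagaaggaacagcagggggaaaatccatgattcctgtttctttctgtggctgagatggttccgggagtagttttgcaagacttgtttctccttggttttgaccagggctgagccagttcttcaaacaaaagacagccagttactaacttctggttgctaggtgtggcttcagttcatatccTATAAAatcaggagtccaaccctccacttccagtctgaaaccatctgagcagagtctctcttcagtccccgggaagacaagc
S100a4 (chr3:90603520-90603819, plus strand): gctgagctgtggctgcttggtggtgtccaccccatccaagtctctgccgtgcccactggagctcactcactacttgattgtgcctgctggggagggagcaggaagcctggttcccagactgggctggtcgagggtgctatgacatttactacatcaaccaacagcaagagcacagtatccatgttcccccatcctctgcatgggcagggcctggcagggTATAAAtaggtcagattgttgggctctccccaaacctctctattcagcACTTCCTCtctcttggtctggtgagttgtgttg
S100a6 (chr3:90612644-90612943, plus strand): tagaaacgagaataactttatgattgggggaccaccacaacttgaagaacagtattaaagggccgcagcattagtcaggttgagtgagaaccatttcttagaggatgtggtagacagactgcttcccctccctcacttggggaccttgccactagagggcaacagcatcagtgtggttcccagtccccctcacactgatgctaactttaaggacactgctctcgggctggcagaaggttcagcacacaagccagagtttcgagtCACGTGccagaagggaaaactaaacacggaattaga
S100a11 (chr3:93520246-93520545, plus strand): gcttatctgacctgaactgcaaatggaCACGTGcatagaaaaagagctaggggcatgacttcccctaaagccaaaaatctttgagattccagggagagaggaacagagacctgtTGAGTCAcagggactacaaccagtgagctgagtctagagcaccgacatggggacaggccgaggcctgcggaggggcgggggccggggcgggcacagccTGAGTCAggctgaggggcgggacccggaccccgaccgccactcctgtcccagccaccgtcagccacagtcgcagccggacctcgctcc

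Among the 9 member windows, TATAAA was found in 3 (Anxa1, Anxa2 and S100a4), against 13.6% of all 32851 mouse windows in the table. Read from the start site, it began at position -32 in Anxa1, -17 in Anxa2 and -31 in S100a4. TGANTCA was found in 2 windows, those of Anxa2 at -95 and of S100a11 at -136 and -38, against 7.8% of all windows. CACGTG was found in 2 windows, S100a6 at position 15 after the start and S100a11 at -223, against 7.2%. GAGGAAGT was found once, on the opposite strand of S100a4 at position 18 after the start, against 3.2%. The AP-1 letters thus stood in 1 member called higher than NI at every time (Anxa2) and in 1 called at 72 h only (S100a11). The windows of Anxa4, Anxa5 and S100a1 held none of the 4 motifs, although Anxa5 was also called higher than NI at every time.

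Divided by transcript length, the members covered a wide range of levels in NI microglia. Anxa3, a phospholipid-binding annexin, was the highest at 273 ± 38.5 CPM per kb (SD, n = 3), followed by Anxa5, the phosphatidylserine binder used as a probe of dying cells, at 58.4 ± 6.72, and S100a1, a partner of calcium pumps and channels, at 43.2 ± 4.19. S100a10 (20.4 ± 4.05), S100a11 (19.6 ± 3.27) and Anxa4 (17.5 ± 1.51 CPM per kb) came next, and neighbours among these overlapped between libraries. Anxa2 (9.65 ± 1.05) and S100a6 (8.51 ± 1.79) overlapped as well, and Anxa1 (3.16 ± 1.12) and S100a4 (3.10 ± 1.91 CPM per kb) were lowest and overlapped. Anxa3, Anxa5 and S100a1 kept the first 3 places in all 7 groups by mean level per kb. Anxa2 moved from the seventh place in NI to the fourth in every injured group, where it overlapped S100a1 at 72 h and 2 weeks after both injuries and lay below it at 1 week.

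Anxa2 rose most among the members. This gene encodes the annexin that joins S100A10 in the surface complex binding plasminogen. Its normalised read count was 12.9, 15.7 and 13.3 CPM in the NI libraries, 227, 226 and 140 CPM at 72 h after HS, and 277, 176 and 174 CPM at 72 h after FT. At 1 week it was 57.6 and 68.2 CPM after HS and 58.6, 74.8 and 93.8 CPM after FT, and at 2 weeks 93.7, 99.2 and 91.9 CPM after HS and 101, 110 and 92.9 CPM after FT. Every injured library lay above every NI library at all 3 times. Across all genes, 24.0%, 20.2% and 14.5% had every library above NI at 72 h, 1 week and 2 weeks after HS. The shares after FT were 22.2%, 11.4% and 17.3%, and they also apply to the members below. On the log2(CPM + 0.5) scale the change from NI was 3.75 ± 0.21 (SE; adjusted p = 6.1e-11, limma) at 72 h after HS and 3.83 ± 0.21 (adjusted p = 4.4e-11) after FT. The 1 week values were 2.13 for HS and 2.38 for FT, and the 2 week values 2.73 and 2.81.

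Anxa5 and Anxa4 also lay above NI at all 3 times. Anxa5 was 112, 103 and 88.6 CPM in NI, 503, 558 and 380 CPM at 72 h after HS and 507, 502 and 453 CPM at 72 h after FT. At 1 week it was 218 and 264 CPM after HS and 191, 323 and 369 CPM after FT, and at 2 weeks 388, 396 and 356 CPM after HS and 448, 411 and 308 CPM after FT. No injured library overlapped with NI, and the log2 change was 2.23 ± 0.22 at 72 h and 1.91 ± 0.22 at 2 weeks after HS, and 2.27 and 1.93 after FT. At 1 week after HS, where only 2 libraries exist, the change of 1.25 was called, but the adjusted p was 0.111 without replicate 2. Anxa4, a membrane-aggregating annexin of epithelia and other cells, ranged from 31.9 to 37.3 CPM without injury and from 59.2 to 123 CPM after it, again without overlap. For HS its log2 changes were 1.60, 0.95 and 1.35 from the earliest to the latest time, and for FT 1.63, 1.39 and 1.43, and it passed the test in all but the 1 week HS comparison, where the change was under 2-fold (adjusted p = 0.033, limma).

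Anxa3 was high from the start and was not called in any comparison with NI. It was 505, 414 and 388 CPM in NI, 732, 1024 and 716 CPM at 72 h after HS, and 654, 821 and 665 CPM at 72 h after FT. All 72 h libraries lay above NI, and the log2 changes of 0.91 ± 0.22 (adjusted p = 0.0036, limma) after HS and 0.71 ± 0.22 (adjusted p = 0.021) after FT were under the 2-fold limit, so that Anxa3 was not called. Without NI replicate 1, the change after HS was 1.02 and was called. At 1 and 2 weeks the changes lay between 0.48 and 0.59.

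Anxa1, which encodes the glucocorticoid-induced annexin that acts on formyl peptide receptors, was called at 72 h only. It was 7.45, 4.12 and 4.32 CPM in NI, 24.7, 26.7 and 21.9 CPM at 72 h after HS, and 59.4, 18.7 and 13.1 CPM at 72 h after FT. The 6 libraries at 72 h lay above NI, and FT replicate 1 was far above the others of its group. The log2 change was 2.15 ± 0.43 (adjusted p = 8.3e-04, limma) after HS and 2.15 ± 0.43 (adjusted p = 9.0e-04) after FT, and 1.53 (adjusted p = 0.0079) after FT without replicate 1. The 1 week values of 10.1 and 13.6 CPM after HS and 8.75, 8.20 and 11.4 CPM after FT also lay above every NI library. That held for 20.2% and 11.4% of all genes after HS and FT. The log2 changes of Anxa1 at 1 week, 1.12 (adjusted p = 0.306, limma) and 0.81 (adjusted p = 0.339), were not called. At 2 weeks it was 12.3, 8.34 and 5.44 CPM after HS and 3.09, 10.5 and 7.33 CPM after FT, overlapping with NI, and it was not called.

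**Figure D1:**
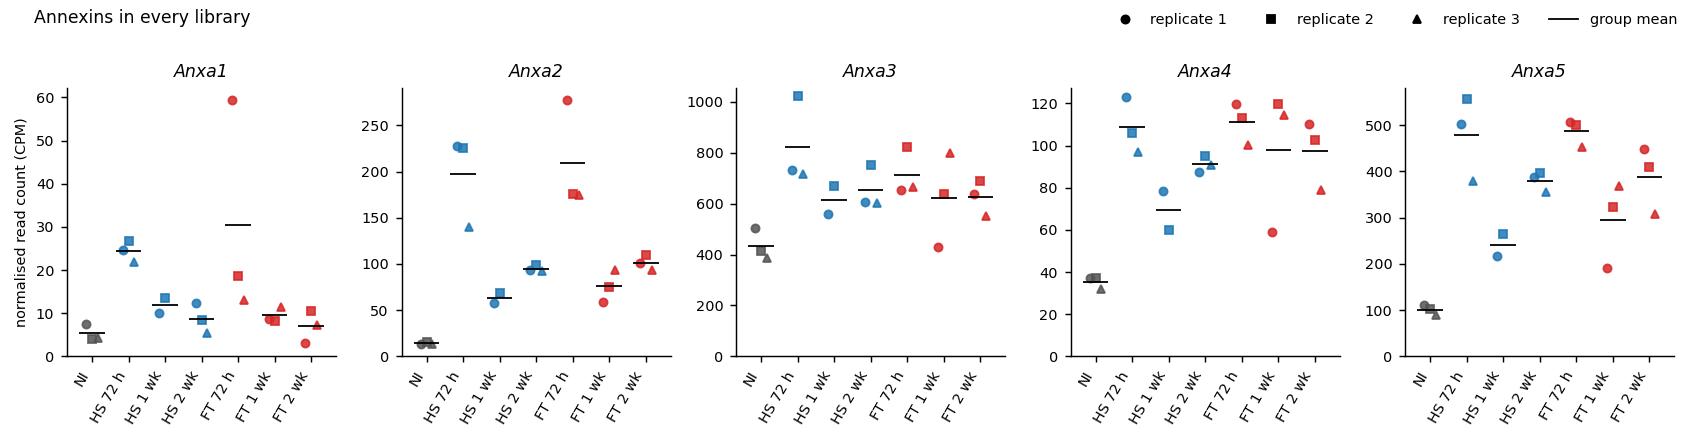
Normalised read count (CPM, linear axes starting at 0) of the 5 annexins in each of the 20 libraries, by group; symbols give the replicate number and bars the group mean. Anxa2, Anxa4 and Anxa5 lie above all NI libraries in every injured group, and the mean of Anxa1 is highest at 72 h, with FT replicate 1 at 59.4 CPM.

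S100a4, S100a6 and S100a11 were called higher than NI at 72 h and at neither later time. S100a4 encodes a myosin-binding S100 protein of motile cells, and it was 0.596, 1.54 and 2.49 CPM in NI, 10.7, 9.80 and 10.9 CPM at 72 h after HS, and 14.2, 9.06 and 6.68 CPM at 72 h after FT. It was then 1.80 to 3.68 CPM at 1 week and 0.483 to 2.50 CPM at 2 weeks, within or close to the NI range. The log2 change at 72 h was 2.54 ± 0.40 (adjusted p = 8.2e-05, limma) after HS and 2.41 ± 0.40 (adjusted p = 1.6e-04) after FT. These are low counts, with 10, 12 and 26 reads in the NI libraries and 31 to 324 reads at 72 h.

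S100a6, calcyclin, a gene linked to cell proliferation, was 6.08, 7.59 and 4.99 CPM in NI, 25.2, 24.2 and 16.6 CPM at 72 h after HS, and 49.4, 24.5 and 19.9 CPM at 72 h after FT. S100a11, which encodes an annexin A1 partner, was 11.9, 8.75 and 9.40 CPM in NI, 29.8, 30.3 and 26.5 CPM at 72 h after HS, and 76.1, 36.5 and 24.4 CPM at 72 h after FT. Neither gene overlapped with NI at 72 h, and FT replicate 1 was the highest of its group for both. The log2 change of S100a6 was 1.74 ± 0.36 after HS and 2.15 ± 0.36 after FT, while S100a11 changed by 1.49 ± 0.31 and 1.98 ± 0.31 in the same comparisons. Without FT replicate 1 the FT values were 1.77 for S100a6 and 1.54 for S100a11, and both stayed called. At 1 week S100a11 was 15.4 and 18.2 CPM after HS, above every NI library, as were 20.2% of all genes. After FT it was 21.0, 10.7 and 17.7 CPM, overlapping with NI. Its log2 changes of 0.72 (adjusted p = 0.381, limma) and 0.65 (adjusted p = 0.265) at that time were not called. At 2 weeks S100a6 was 4.68, 8.55 and 5.44 CPM after HS and 2.43, 9.06 and 4.35 CPM after FT, and S100a11 was 12.01, 10.3 and 11.4 CPM after HS and 10.7, 18.8 and 15.0 CPM after FT, so that both overlapped with NI.

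S100a1 was in between. It was 32.1, 26.4 and 29.4 CPM in NI, 98.8, 106 and 78.9 CPM at 72 h after HS, and 76.0, 137 and 84.4 CPM at 72 h after FT. All later libraries, at 38.4 to 82.3 CPM, also lay above NI. Its log2 change was 1.67 and 1.70 at 72 h after HS and FT, 1.13 ± 0.23 at 1 week after FT and 1.07 ± 0.23 at 2 weeks after FT, all called, and 0.45 at 1 week and 0.85 (adjusted p = 0.031, limma) at 2 weeks after HS, not called. With columns scaled to 1 total, the FT values were 0.79 at 1 week and 0.67 at 2 weeks, under the 2-fold limit. The 2 week call was also lost without NI replicate 2 or without FT replicate 2, where the change was at its lowest 0.86.

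S100a10, which encodes the light chain of the annexin A2 complex, was the only member whose libraries all lay below NI at 1 and 2 weeks. It was 12.5, 12.2 and 17.2 CPM in NI, 23.7, 21.3 and 21.9 CPM at 72 h after HS, and 41.6, 23.7 and 14.3 CPM at 72 h after FT. At 1 week it was 5.31 and 6.98 CPM after HS and 6.60, 5.49 and 8.04 CPM after FT, and at 2 weeks 6.24, 8.34 and 8.21 CPM after HS and 2.62, 8.88 and 8.32 CPM after FT. The highest of these 11 libraries, at 8.88 CPM, was below the lowest NI library. Of all genes, 17.1% and 10.3% had every library below NI at 1 and 2 weeks after HS. After FT the shares were 10.1% and 13.35%. The rise of S100a10 at 72 h, 0.67 and 0.79 on the log2 scale, did not pass the test (adjusted p = 0.16 and 0.11, limma). Without FT replicate 3 the FT value was 1.16 and was called. The lower level was called at 2 weeks after FT, with a log2 change of -1.17 ± 0.35 (adjusted p = 0.044), and not at 1 week after HS (-1.12, adjusted p = 0.17) or FT (-1.003, adjusted p = 0.10) or 2 weeks after HS (-0.83, adjusted p = 0.23). The call at 2 weeks after FT was lost without FT replicate 1 (-0.65, adjusted p = 0.33), when any 1 of the NI libraries was left out, and with edgeR's quasi-likelihood test (-1.07, adjusted p = 0.067). Over the fits that left out 1 library, its adjusted p ranged from 0.025 to 0.33 (limma). Some other settings did call the lower level at 1 week after FT. These were edgeR's likelihood ratio test (-1.06, adjusted p = 0.044), DESeq2 (-1.06, adjusted p = 0.037) and limma with columns scaled to 1 total (-1.34, adjusted p = 0.021). With only the samples compared, limma called it at 1 week after FT (adjusted p = 0.047) and after HS (adjusted p = 0.0081).

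**Figure D2:**
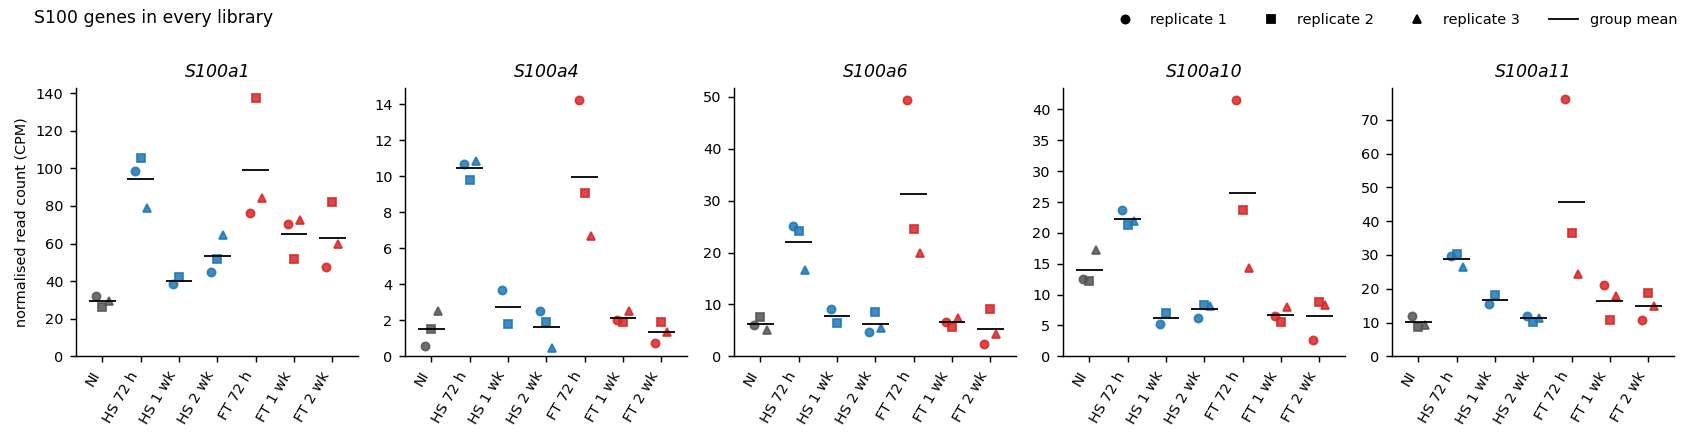
Normalised read count (CPM, linear axes starting at 0) of the 5 S100 members in each of the 20 libraries, by group; symbols give the replicate number and bars the group mean. S100a4, S100a6 and S100a11 peak at 72 h, S100a1 stays above NI, and S100a10 lies below all NI libraries at 1 and 2 weeks.

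The first question of the design was which genes differ from NI at each time. Here a call needs a change of at least 2-fold and, in limma, a p under 0.05 after Benjamini-Hochberg adjustment over all 16810 genes. At 72 h, 8 of 10 members were called higher after HS, where 9.08% of all genes were, and the same 8 were called higher after FT, where 8.14% of all genes were. Those not called were Anxa3 and S100a10. At 1 week, 2 members (Anxa2 and Anxa5) were called higher after HS, against 1.70% of all genes, and 4 (Anxa2, Anxa4, Anxa5 and S100a1) after FT, against 2.86%. At 2 weeks, 3 members (Anxa2, Anxa4 and Anxa5) were called higher after HS, against 2.43% of all genes, and 4 (the same with S100a1) after FT, against 3.53%. S100a10 was the 1 member called lower, at 2 weeks after FT, where 1.36% of all genes were. The median log2 change of the members was 1.70 at 72 h after HS and 2.07 after FT, beside -0.11 and -0.09 over all genes, and 0.61 and 0.52 at 2 weeks, beside -0.01 and -0.02. All 6 comparisons share the NI libraries. With columns scaled to 1 total, the median over all genes was -0.52 at 72 h after HS and -0.48 after FT, and no called member changed direction. Only S100a11 lost its call at 72 h in this scaling, at 1.00 after HS, just under the limit.

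Markers of dividing cells and of monocytes and macrophages were raised at 72 h, and these lists differed afterwards. All 5 markers of dividing cells were called higher at 72 h after both injuries, and their summed level was 25.7 to 29.2 CPM in NI and 477 to 750 CPM at 72 h. At 1 week that sum was 32.1 to 40.7 CPM after HS and 30.1 to 33.1 CPM after FT. Of all genes, 9.08% and 8.14% were called higher at 72 h after HS and FT, 1.70% and 2.86% at 1 week, and 2.43% and 3.53% at 2 weeks. Of the 11 monocyte and macrophage markers, 6 were called higher at 72 h after HS and 9 after FT. At 1 week 4 were called higher after HS and 3 after FT, and at 2 weeks 3 after each injury. Their summed level, 66.4 to 82.2 CPM in NI, was 529 to 607 CPM at 1 week after HS and 282 to 436 CPM after FT. At 2 weeks that sum was 362 to 509 CPM after HS and 350 to 597 CPM after FT. These markers differed in their course: after FT, Arg1 was 17.0 to 87.1 CPM at 72 h and 1.05 to 1.30 CPM at 2 weeks, beside 1.29 to 1.63 CPM in NI. After HS, Arg1 still ranged from 0.624 to 9.62 CPM at 2 weeks. Fn1, at 11.4 to 13.9 CPM in NI, was 407 to 914 CPM at 72 h and 199 to 416 CPM at 2 weeks after FT. Cd44 and Ms4a4c also lay above NI at 2 weeks after FT, Cd44 at 58.7 to 91.4 CPM against 13.1 to 14.5 CPM and Ms4a4c at 35.6 to 47.9 CPM against 6.05 to 10.2 CPM. The part of dividing cells or of incoming macrophages in the levels of Anxa1, S100a4, S100a6 and S100a11 was not tested. Without FT replicate 1, the library with the highest monocyte marker sum, the same 8 members were called at 72 h after FT. The other 72 h FT libraries still held 663 and 678 CPM of that list, against 66.4 to 82.2 CPM in NI. This fit therefore cannot show what part monocytes or macrophages had. Of the 10 microglial markers, 1 was called higher and 1 lower at 72 h after each injury. At that time 724 and 688 of 16810 genes were called lower after HS and FT. After FT, 1 was called higher at 1 week and 1 lower at 2 weeks, beside 2.86% and 1.36% of all genes. Their median log2 change from NI lay between -0.43 and -0.17, beside -0.11 to 0.02 over all genes. The summed level of 8 astrocyte markers was 428 to 718 CPM in NI. It was 307 to 610, 310 to 330 and 170 to 340 CPM at 72 h, 1 week and 2 weeks after HS. After FT it was 486 to 723.5, 336 to 477.5 and 192 to 303 CPM. At 2 weeks after FT, replicate 1 had the lowest astrocyte and oligodendrocyte sums and the lowest S100a10 level of its group. The same library was also the lowest of its group for Anxa1, S100a1, S100a4, S100a6 and S100a11. It was the highest for Anxa4 and Anxa5, and in the middle for Anxa2 and Anxa3. The part of astrocytes or oligodendrocytes in the levels of S100a10 or the other members was not tested.

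**Figure D3:**
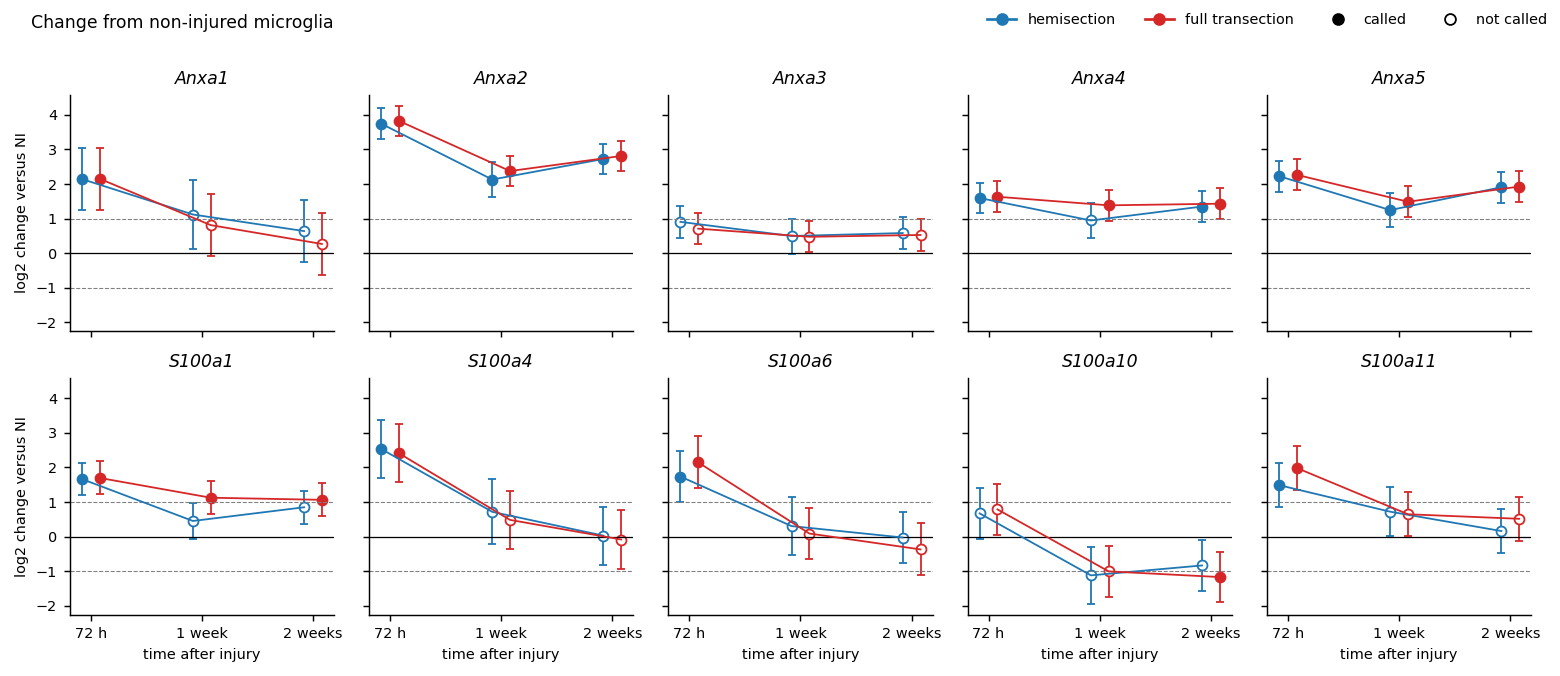
Change from NI on the log2(CPM + 0.5) scale for each member at 72 h, 1 week and 2 weeks after hemisection or full transection; bars are 95% intervals from limma, filled points were called, and dashed lines mark a 2-fold change. Anxa2, Anxa4 and Anxa5 stay above 0 throughout, S100a4 and S100a6 return to about 0, and S100a10 falls to about -1.

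The later times were then compared directly with 72 h, which does not involve the NI libraries. After HS, 5 members (Anxa2, S100a1, S100a4, S100a6 and S100a10) were lower at 1 week than at 72 h, where 6.03% of all genes were called in either direction. After FT, 5 members (Anxa2, S100a4, S100a6, S100a10 and S100a11) were lower at 1 week, against 3.44%. At 2 weeks, the same 6 members were lower than at 72 h after HS (against 4.74% of all genes) and after FT (against 3.81%), namely Anxa1, Anxa2, S100a4, S100a6, S100a10 and S100a11. No member was higher than at 72 h. S100a4 fell by 2.51 ± 0.40 on the log2 scale after HS and by 2.49 ± 0.40 after FT between 72 h and 2 weeks, S100a6 fell by 1.76 and 2.52, and S100a10 fell by 1.504 and 1.96. Anxa2 fell by 1.02 ± 0.21 after both injuries, close to the 2-fold limit.

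By contrast, the difference between 2 weeks and 72 h was small for the other annexins. It was -0.25 after HS and -0.20 after FT for Anxa4 (95% interval from -0.69 to 0.20 and from -0.65 to 0.25), and -0.32 and -0.34 for Anxa5 (from -0.77 to 0.13 and from -0.79 to 0.11). For Anxa3 it was -0.32 and -0.18. None of these passed the test. At 1 week, however, every Anxa5 library lay below every 72 h library, as did 22.9% of all genes after HS and 10.4% after FT. The log2 change of Anxa5 from 72 h was -0.98 after HS (adjusted p = 0.013, limma) and -0.78 after FT (adjusted p = 0.037). Both were under the 2-fold limit and so not called, although the HS change was called without replicate 3 at 72 h. Several of the called declines lost their call when 1 library was left out. Anxa1 was not called at 2 weeks after FT without replicate 1 of the 72 h libraries (-1.25, adjusted p = 0.071, limma) or without replicate 1 at 2 weeks, and after HS without any of 4 libraries (replicates 1 and 2 at 72 h, 2 and 3 at 2 weeks). Anxa2 went under the 2-fold limit at 2 weeks after HS in 3 of 6 such fits (without replicates 1 or 2 at 72 h or 3 at 2 weeks) and after FT in 2 of 6 (without replicate 1 at 72 h or 3 at 2 weeks). S100a11 at 1 week after FT was lost without replicate 1 at 72 h (-0.89, adjusted p = 0.078) or replicate 2 at 1 week. At 1 week after HS, S100a1 and S100a10 were lost without replicate 1 of that group, S100a4 without replicate 2, and S100a6 in 4 of 5 fits, those without either 1 week library or without replicates 1 or 2 at 72 h. S100a4, S100a6, S100a10 and S100a11 at 2 weeks kept their calls without any single library, after both injuries.

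Between 1 and 2 weeks no member was called after HS, where 0.0119% of all genes were, or after FT, where 0.0714% were. At an unadjusted p under 0.05 (limma), 2 members, Anxa2 and Anxa5, differed after HS, with log2 changes of 0.59 and 0.66, and 0 members after FT, beside 4.69% and 4.60% of all genes. Both edgeR tests (likelihood ratio and quasi-likelihood) and DESeq2 also called 0 members in both comparisons.

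The question of severity was addressed by comparing FT with HS at the same time. The number of members called was 0 at 72 h, 1 week and 2 weeks, where 0% of all genes were called, and the edgeR and DESeq2 tests also called 0 members. At an unadjusted p under 0.05 (limma), 0 members differed at 72 h, 1 at 1 week and 0 at 2 weeks, beside 3.00%, 4.31% and 2.61% of all genes. The 1 member was S100a1, given here as a description, which was 51.8 to 72.6 CPM at 1 week after FT and 38.4 and 42.0 CPM after HS, a log2 difference of 0.67 with a 95% interval from 0.14 to 1.20 (adjusted p = 1.00, limma). The intervals leave room for moderate differences: for Anxa2 at 72 h the difference of 0.08 had an interval from -0.36 to 0.52, and for Anxa1 the difference of 0.01 had an interval from -0.89 to 0.91. The test of whether the severity difference changed from 72 h to 1 week or to 2 weeks called 0 members (0% of all genes), and 0 members at an unadjusted p under 0.05 (limma).

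Anxa2 and S100a10 encode the chains of 1 complex, and their transcripts moved apart. Within each library the ratio of Anxa2 to S100a10, each per transcript length, does not depend on how the columns are scaled. It was 0.487, 0.608 and 0.368 in NI, 4.54, 5.02 and 3.03 at 72 h after HS, and 3.16, 3.52 and 5.76 at 72 h after FT. At 1 week it was 5.13 and 4.63 after HS and 4.21, 6.45 and 5.52 after FT, and at 2 weeks 7.11, 5.63 and 5.30 after HS and 18.2, 5.84 and 5.29 after FT. All 17 injured libraries thus held more Anxa2 than S100a10 per length, and all 3 NI libraries less. The value of 18.2 belongs to a library with 28 reads of S100a10. At 72 h the higher ratio came with a rise of Anxa2, and at 1 and 2 weeks with a smaller rise of Anxa2 and a lower S100a10.

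**Figure D4:**
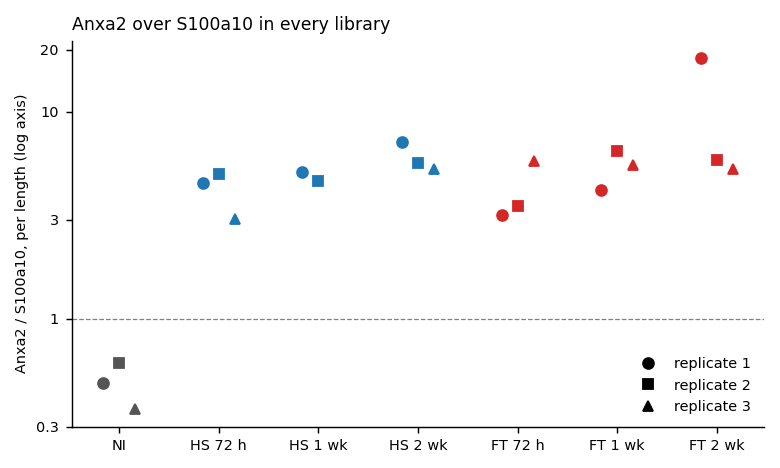
Ratio of Anxa2 to S100a10 transcript level per length in each library (log axis); the dashed line marks a ratio of 1. The 3 NI libraries lie between 0.368 and 0.608 and all injured libraries lie at 3.03 or above.

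Partners of annexin A2 and S100A10, some of them in plasmin formation, were read from a list of 11 genes, all in the table. Called higher were 3 at 72 h after HS, where 9.08% of all genes were, and 4 after FT, where 8.14% were. At each later time 3 were called higher, beside 1.70% and 2.43% of all genes after HS and 2.86% and 3.53% after FT, and none was called lower. Plaur, the urokinase receptor, passed the test in all 6 comparisons with NI, rising from 15.3 to 22.0 CPM in NI to 50.2 to 84.0 CPM at 72 h after HS and 134 to 152 CPM at 2 weeks after FT. Its log2 change was 2.86 ± 0.26 at 2 weeks after HS and 2.91 ± 0.26 after FT. Plau, urokinase itself, was called at 1 and 2 weeks but not at 72 h, and was 11.7 to 16.5 CPM in NI, 42.8 to 61.9 CPM at 2 weeks after HS and 53.1 to 73.8 CPM at 2 weeks after FT. Ctsb, the lysosomal protease cathepsin B that binds the complex at the surface, was called in all 6, with a log2 change of 1.98 at 72 h after HS and 1.75 at 2 weeks after FT. Plgrkt, a plasminogen receptor, was called at 72 h only, with changes of 1.12 and 1.03. Ahnak, a scaffold bound by the complex, was called at 72 h after FT only (1.07), where its libraries ranged from 20.1 to 66.8 CPM. Whether these calls differ between times was not tested for this list.

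Other genes of both families were read from lists. Of 6 other annexins in the table, 0 passed the call in any comparison with NI (limma). Anxa6, at 65.0 to 92.1 CPM in NI, was 130 to 175 CPM at 72 h after HS, a log2 change of 0.90 (adjusted p = 0.0083) that was under the 2-fold limit. Of 7 other S100 genes and their relatives on the list, S100a13 alone was called, and it lies head to head with S100a1. It was higher at 72 h after HS (1.39 ± 0.23) and FT (1.35 ± 0.23), where 9.08% and 8.14% of all genes were. S100a13, which helps release signal-less growth factors, was 34.1 to 48.5 CPM in NI, 103 to 122 CPM at 72 h after HS and 83.5 to 163 CPM at 72 h after FT. S100a8 and S100a9, the calprotectin genes of neutrophils, were not called and ran the other way at 72 h, with changes of -1.94 and -1.68 after HS that carried wide errors (SE 0.81 and 0.78).

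**Figure D5:**
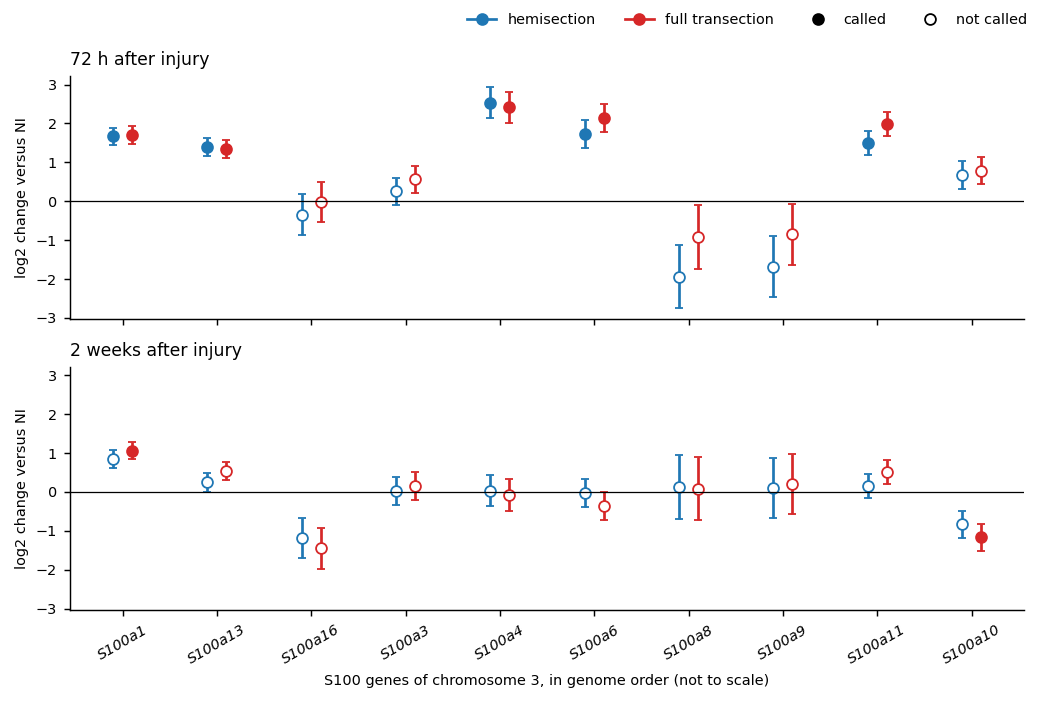
Log2 change from NI at 72 h (top) and 2 weeks (bottom) for the 10 S100a genes of chromosome 3 that are in the table, in genome order and not to scale; bars are SE and filled points were called. At 72 h S100a1, S100a13, S100a4, S100a6 and S100a11 are raised, whereas S100a16, S100a3, S100a8 and S100a9 between and beside them were not called.

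Receptors and partners were mostly not called. Of 8 annexin and S100 receptors in the table, Alcam was called higher at 2 weeks after HS (1.36 ± 0.25) and FT (1.31 ± 0.25). At that time 2.43% and 3.53% of all genes were called higher. No other receptor was called. The formyl peptide receptor genes Fpr1 and Fpr2, targets of annexin A1, were at 0.515 to 0.894 and 0.480 to 0.536 CPM in NI, and Ager, the receptor for several S100 proteins, at 2.09 to 2.30 CPM. Tlr4, the receptor for calprotectin, was 104 to 146 CPM in NI and was not called. Of 11 intracellular S100 partners, 1 was called higher at 72 h after HS and FT, where 9.08% and 8.14% of all genes were. It was Capzb, an actin-capping subunit (1.34 and 1.04). Pygm, muscle glycogen phosphorylase, was called lower at 2 weeks after HS (-1.51), 1 week after FT (-1.47) and 2 weeks after FT (-2.07). At 2 weeks, 134 of 16810 genes were called lower after HS and 1.36% of all genes after FT.

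Of 14 genes of membrane repair, 3 (Ehd1, Capn1 and Pdcd6) were called higher at 72 h after HS, where 9.08% of all genes were, and 4 (the same with Capn2) after FT, where 8.14% were. None was called lower, and the other 11 and 10 were not called. Ehd1, a membrane-shaping ATPase, rose from 5.66 to 8.24 CPM in NI to 22.8 to 41.8 CPM at 72 h after HS, and was also called at 1 week after HS and 2 weeks after FT. Pdcd6, the calcium sensor ALG-2, rose by 1.19 ± 0.19 after HS and 1.06 ± 0.19 after FT at 72 h. The median log2 change of the list was 0.34 at 72 h after HS and 0.56 after FT, beside -0.11 and -0.09 over all genes. Of 7 genes that control phosphatidylserine exposure, the ligand of annexins, only the scramblase Plscr1 was called. It was higher at 72 h after HS (1.13 ± 0.28), where 9.08% of all genes were.

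The median log2 change at 72 h after HS and FT was 0.81 and 0.75 for the other annexins, -0.35 and -0.01 for the other S100 genes, 0.32 and 0.38 for the annexin A2 and S100A10 partners, -0.06 and 0.27 for the receptors, 0.32 and 0.14 for the intracellular S100 partners, and 0.04 and 0.12 for phosphatidylserine exposure, beside -0.11 and -0.09 over all genes.

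The genes whose group means followed each member most closely were found by Pearson's r over the 7 groups among 8301 genes with a mean of at least 10 CPM, as a description with groups that share sorting and scaling. Klhl6 (r = 0.998) was closest to Anxa2. Ctsd (0.996), cathepsin D, and Gm2a (0.996), the GM2 activator, were closest to Anxa4. Kif15 (0.993) and Tyms (0.993), a mitotic motor and thymidylate synthase, were closest to S100a4, and Ccr2 (0.991), the monocyte chemokine receptor, and Hmmr (0.990) to S100a6. For Anxa1 the closest were, in order, Cwc22 (0.992), Ckap5 (0.990) and Arg1 (0.988). Pigk (0.995) was first for Anxa3, Acot13 (0.997) for S100a1, Alox5ap (0.985) for S100a10 and Exoc4 (0.979) for S100a11. Among the members themselves, Anxa2 had r of 0.99 with Anxa5 and 0.97 with Anxa4 and Anxa3, and S100a4 had r of 0.98 with S100a6. Anxa2 and S100a10 had r of 0.29.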

How the data were processed

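Per the labels and the study's methods, libraries were made from total RNA with SMARTer Ultra low and Nextera chemistry, reads were mapped with TopHat2 2.0.9 to mm10 (GRCm38), counted per gene with HTSeq 0.5.4p3, and normalised by library size with edgeR 3.3.6. Genes with 10 counts in at least 2 replicates were kept. The deposited values are a signal in CPM. All 336200 values were whole multiples of 1 read (tolerance 0.001), so reads were recovered for count tests.

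Here log2(CPM + 0.5) was fitted with limma 3.58.1 (intensity trend, 1 mean per group, all 20 libraries), with Benjamini-Hochberg adjustment over 16810 genes. Alternatives were 0.1 or 1 CPM added, a filter (1 CPM in 2 samples), only the samples compared, 2 other scalings, no fold limit, a replicate block, edgeR 4.0.16, DESeq2 1.42.0 and each library left out. The scripts were tested on simulated data. All members were named, and genes of other lists where called against NI. Near copies were sought with BLASTN (at least 90% identity over 100 bases). The members and lists were chosen with earlier results of these data known.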

Additional observations from a re-analysis of the deposited data

Results flagged for a closer look

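In these results the effect of injury differed between time points by a direct test (limma, adjusted p under 0.05 over all genes and at least 2-fold), all with lower levels later than at 72 h. Values are log2 changes from 72 h. At 1 week after HS they were -1.62 for Anxa2, -1.21 for S100a1, -1.82 for S100a4, -1.43 for S100a6 and -1.79 for S100a10. At 1 week after FT they were -1.45 for Anxa2, -1.93 for S100a4, -2.06 for S100a6, -1.79 for S100a10 and -1.34 for S100a11. At 2 weeks after HS they were -1.50 for Anxa1, -1.02 for Anxa2, -2.51 for S100a4, -1.76 for S100a6, -1.50 for S100a10 and -1.33 for S100a11. At 2 weeks after FT they were -1.89 for Anxa1, -1.02 for Anxa2, -2.49 for S100a4, -2.52 for S100a6, -1.96 for S100a10 and -1.47 for S100a11. The levels of the dividing-cell markers fell over the same interval, and their part in these values was not tested.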

How the results depend on the processing

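Counts of called members were within 1.5 times the reported value in 163 of 165 alternatives other than leaving out a library. The exceptions were 4 in place of 2 at 1 week after HS against NI when only the samples of those groups were fitted (Anxa1 and S100a10 were added), and 3 in place of 5 at 1 week against 72 h after HS with columns scaled to 1 total. Leaving out 1 library gave 8 to 9 members at 72 h after HS and after FT, 1 to 2 at 1 week and 3 at 2 weeks for HS, and 4 at 1 week and 3 to 5 at 2 weeks for FT. The lowest values came without HS 1 week replicate 2 and without NI replicate 2. For the later times against 72 h, the HS counts were 2 to 6 (1 week) and 4 to 6 (2 weeks), the FT counts 4 to 6 at both, with 2 or 3 at 1 week after HS when a library of that group was left out. A group left with 1 library was assumed to vary like the others. The replicate numbers do not pair the libraries (median correlation of deviations 0.002 over 57 pairs with the same number, 0.001 over 114 with different numbers), and with the replicate block 8, 2, 3, 8, 4 and 4 members were called against NI at 72 h, 1 week and 2 weeks after HS and after FT.

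Values that changed sign were all of members not called. With 1 total per column these were S100a4 (-0.21) and S100a11 (-0.15) at 2 weeks after HS, S100a6 (-0.23) at 1 week after FT and Anxa1 (-0.093) at 2 weeks after FT. With 1 library left out, the ranges at 2 weeks after HS were -0.36 to 0.52 for S100a4 and -0.26 to 0.14 for S100a6. After FT, S100a6 ranged from -0.046 to 0.23 at 1 week, and at 2 weeks Anxa1 ranged from -0.082 to 0.73, S100a4 from -0.47 to 0.25 and S100a6 from -0.81 to 0.037. The cause was not tested. The groups of 2 or 3 libraries and, for S100a4, counts of 4 to 32 reads outside the 72 h groups limit what can be detected.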
